A study of Mus musculus with 13 samples.

Results

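The imprinted growth regulators Grb10, Plagl1, Mest, Peg10 and Sgce were described through the CpGs that reduced representation bisulfite sequencing (RRBS) read in 4 intervals of the mouse genome (mm9). RRBS reads cytosine methylation in the CpG-rich fragments that a restriction enzyme releases. The members were all CpGs with reads inside fixed coordinates around the genes, whatever their methylation, though the genes themselves were picked with earlier results of these data known. They numbered 515 of the 3340630 CpGs that were read in at least 1 of the 13 libraries, and 60 of the 515 were read in every library. Grb10 held 308 of them on chromosome 11 (first CpG 11925589, last 11938774), Plagl1 held 62 on chromosome 10 (12800438 to 12810994), Mest held 87 on chromosome 6 (30682412 to 30699383), and Peg10 with Sgce held 58 on chromosome 6 (4696905 to 4707143).

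Genomic DNA came from male mouse embryonic fibroblasts (MEFs), from male cells taken during their reprogramming, and from induced pluripotent stem cells (iPSCs) of both sexes. The groups were 2 libraries of female iPSCs labelled XaXa (7 and 8), taken here as 2 active X chromosomes, 4 of female iPSCs labelled XO (3, 5, 6 and 9), 3 of male iPSCs (1, 2 and 4), 1 of male SSEA1 positive cells, 1 of male SSEA1 negative cells, and 2 of male MEFs (4 and 5). SSEA1 is a surface antigen of mouse pluripotent cells, and the iPSCs had been freed of feeder cells, per the labels. The labels name no strain, cell line or culture, and no female MEF library was analysed here, so the female iPSCs are set beside male fibroblasts, and a p-value says only how the groups compare with the spread among libraries, part of which may be technical.

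All 4 loci carry a differentially methylated region whose maternal copy is methylated in the oocyte and whose paternal copy is not, a difference that body cells keep, so that an intact imprint reads as an intermediate level. Grb10 encodes an adaptor protein that dampens insulin and growth factor receptor signalling and is expressed from the maternal copy in most tissues, from a promoter that is itself unmethylated on both copies; its imprinted region lies inside the gene. Plagl1 encodes a zinc finger factor that restrains growth, Mest an enzyme-like protein expressed in mesoderm, Peg10 a retrotransposon-derived protein needed for the placenta, and Sgce the membrane protein epsilon-sarcoglycan. These genes are expressed from the paternal copy, and Peg10 and Sgce share 1 imprinted CpG island. In mouse, the protein ZFP57 binds the methylated hexamer TGCCGC and protects imprints.

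A pair of promoters are shown because their CpGs carry the contrast between the imprinted Plagl1 island and the main promoter of Grb10. The sequences are RefSeq promoters (GRCm38.p6, 300 bases around the start of the gene), given 5′ to 3′ on the strand of the gene with each CpG in capitals. The Grb10 promoter lies at chr11:12037371-12037670 on the minus strand and the Plagl1 promoter at chr10:13090582-13090881 on the plus strand.
Grb10 promoter: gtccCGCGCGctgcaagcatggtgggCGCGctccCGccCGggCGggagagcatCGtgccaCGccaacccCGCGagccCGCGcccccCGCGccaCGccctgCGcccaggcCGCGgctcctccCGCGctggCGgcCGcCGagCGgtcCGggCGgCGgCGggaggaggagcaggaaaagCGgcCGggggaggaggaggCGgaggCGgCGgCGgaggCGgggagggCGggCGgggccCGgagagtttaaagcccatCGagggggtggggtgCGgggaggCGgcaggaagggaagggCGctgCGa
Plagl1 promoter: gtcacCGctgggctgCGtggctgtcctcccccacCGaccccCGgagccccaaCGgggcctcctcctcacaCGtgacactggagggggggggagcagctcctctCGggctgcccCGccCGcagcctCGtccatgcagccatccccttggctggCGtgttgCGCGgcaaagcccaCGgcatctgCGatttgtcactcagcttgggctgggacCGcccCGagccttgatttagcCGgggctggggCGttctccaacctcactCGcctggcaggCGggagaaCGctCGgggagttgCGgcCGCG
The Grb10 promoter holds 45 CpGs and the Plagl1 promoter 26, against a median of 7 over 32544 promoters of this length. Both hold TGCCGC once when both strands are searched, as do 11.7% of those promoters. The deposited tables give the 5 letters around each CpG, and these were used to place the promoters: all 47 contexts compared for Grb10 and all 28 for Plagl1 were equal. In mm9 the Grb10 promoter was thereby matched to CpGs from 11937375 to 11937668, of which 38 had reads, and the Plagl1 promoter to CpGs from 12810393 to 12810686, of which 26 had reads. The other Grb10 and Mest promoters in the table could not be placed with certainty, and Peg10 and Sgce have no entry.

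Total reads over CpGs ranged from 4784488 in XO 9 to 143148634 in XaXa 8. Averaged over the 20653 autosomal CpGs that reached 10 reads in every library, methylation was 36.6% and 31.0% in XaXa 7 and 8, lay between 50.04% and 58.5% in XO and between 51.8% and 56.4% in male iPSCs, and was 59.9% in SSEA1 positive cells, 60.7% in SSEA1 negative cells, and 61.2% and 62.6% in the MEFs. Read depth on chromosome X relative to autosomes was 1.19 and 1.11 in XaXa, 1.19, 1.03, 0.928 and 1.09 in XO 3, 5, 6 and 9, and 0.892 to 0.909 in male iPSCs, so that XO 3, 5 and 9 lay nearer to the closest XaXa library than to any male iPSC library, and XO 6 lay nearer to male iPSCs. The male MEF 5 was at 1.05. XO 6 had a relative depth of 1.23 on chromosome 11, which holds Grb10, against 0.961 to 1.03 in the other 12 libraries. At the promoter of Pou5f1, a pluripotency gene that is kept unmethylated in pluripotent cells, the level was 1.80% and 3.17% in XaXa, 15.6% to 41.7% in XO, 2.53% to 32.9% in male iPSCs, 51.8% and 47.0% in SSEA1 positive and negative cells, and 32.4% and 58.1% in MEFs, so XO 3 (41.7%) and male iPSC 2 (32.9%) were above MEF 4. A window at Nanog had no reads.

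The level of a region is the percentage of methylated reads over all reads, summed over its CpGs. Reads over more than 1 CpG enter this sum more than once, so summed reads exceed molecules, and the reads at the deepest CpG of the region are given as the nearer guide to depth. Wilson 95% intervals cover counting error only and are too narrow for the same reason. Where no read was methylated, the limit given is 3 of the summed reads; it counts each of them as a molecule, so that far higher levels are possible where the deepest CpG has few reads. The regions read in detail were 4, namely the 2 neighbouring 1 kb tiles of Grb10, 1 tile of Plagl1 (this holds the promoter shown above), 1 tile of Mest and the island between Peg10 and Sgce. The Mest tile is the one before the window first placed, which fell to 6 reads in XO 9 and 9 in male iPSC 2, and it was chosen after its values had been seen.

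At Grb10 (132 CpGs, 11925589 to 11926883) XaXa was low, male iPSCs were high and XO was spread between them. The level was 10.9% in XaXa 7 (137 reads, 16 at the deepest CpG) and 7.55% in XaXa 8 (2794 reads, 179 at the deepest CpG). XO 3 and 5 were at 15.3% and 15.5%, XO 6 at 59.8% and XO 9 at 37.0%, the last from 54 reads. Male iPSCs 1, 2 and 4 were at 73.4%, 54.4% and 70.9%. Each XaXa library was therefore below each of the other iPSC libraries in summed reads, XO 3 and 5 were near XaXa, and XO 6 was inside the male range. As unweighted means of CpG levels, XaXa 7 and 8 were at 24.2% and 20.7%, above XO 3 and 5 at 19.2% and 12.9%. SSEA1 positive and negative cells were at 26.1% (interval 19.0% to 34.6%) and 25.8% (19.0% to 34.0%), and MEFs 4 and 5 were at 39.2% and 49.4%, so that the MEFs were intermediate and above both SSEA1 libraries.

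The 2 Grb10 tiles did not behave alike outside the iPSCs. In the first (from 11925001) SSEA1 positive and negative cells had 2.82% and 14.5%, and MEFs had 55.0% ± 8.0 (SD, n = 2). In the second (from 11926001) they had 60.4%, 46.7% and 27.8% ± 2.05 (SD, n = 2). The order of these cells turned between neighbouring tiles, but on few molecules. In the second tile no CpG had more than 5 reads in SSEA1 positive cells, 3 in SSEA1 negative cells or 4 in either MEF library, and in the first none had more than 4 and 6 in SSEA1 positive and negative cells. XO 9 also turned, with 63.0% in the first tile and 11.1% in the second, each from 27 reads (8 and 4 at the deepest CpG). XaXa had 5.36% ± 1.61 in the first and 13.3% ± 6.88 in the second (SD, n = 2), the lowest iPSC mean in both.

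At Plagl1 (55 CpGs, 12810393 to 12810994) the male iPSCs were again high, but XaXa and XO overlapped over the region as a whole. XaXa 7 was at 35.1% from 37 reads (7 at the deepest CpG, interval 21.8% to 51.2%) and XaXa 8 at 9.86% from 1278 reads (152 at the deepest CpG). XO 3, 5, 6 and 9 were at 77.9%, 34.8%, 41.9% and 21.4%, the last from 14 reads. Male iPSCs were at 61.5%, 73.3% and 56.9%, all above the XaXa libraries and above XO 5, 6 and 9, but not above XO 3. SSEA1 positive cells had 1 methylated read of 95 (1.05%, interval 0.186% to 5.72%) and SSEA1 negative cells 0 of 47 (limit 6.38%, 5 reads at the deepest CpG). MEF 4 had 0 of 29 reads (limit 10.3%, 3 reads at the deepest CpG), while MEF 5 was at 42.3% from 52 reads (6 at the deepest CpG). The MEF libraries thus disagreed where few molecules can have been read, and these reads do not show that MEF 4 was unmethylated.

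In the Plagl1 promoter itself, the CpGs with at least 10 reads in the deepest library of each iPSC group kept the order of those libraries. At positions 211, 216 and 232 of the sequence shown, counted from its 5′ end, XaXa 8 had 8.05%, 7.38% and 2.63% at 149 to 152 reads. XO 6 had 32.8%, 40.3% and 28.6% at 67 to 70 reads at the same CpGs. Male iPSC 4 had 47.8%, 48.9% and 45.1% at 46 to 51 reads. The order XaXa 8, XO 6, male iPSC 4 held at each of these CpGs, which share fragments and are not separate measurements. At positions 42, 53 and 71 XaXa 8 had 6.56%, 4.92% and 1.79% (56 to 61 reads), XO 6 had 55%, 55% and 10% (20 reads each) and male iPSC 4 had 25%, 25% and 37.5% (8 reads each), so XO 6 was above male iPSC 4 at 2 of these 3. Pooled over this promoter, XaXa 7 and 8 were at 22.2% and 6.05% (27 and 661 reads). XO 3, 5, 6 and 9 were at 50%, 35.8%, 34.7% and 33.3% (30, 95, 285 and 9 reads). Male iPSCs 1, 2 and 4 were at 45.5%, 68% and 50% (33, 25 and 186 reads). XaXa and XO thus did not overlap in the promoter, unlike over the whole region, though on few reads in XaXa 7, XO 3 and XO 9. In the Grb10 promoter, by contrast, the pooled level was 0% and 0.390% in XaXa, 0% to 3.33% in XO, 0% to 2.02% in male iPSCs, 0% in both SSEA1 libraries and 0% and 3.57% in MEFs. Some of these values rest on few reads, with 1 methylated of 30 in XO 9, 0 of 28 in male iPSC 2 and 0 of 30 in MEF 4. SSEA1 negative cells and both MEF libraries had reads at 6 CpGs each.

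**Figure D1:**
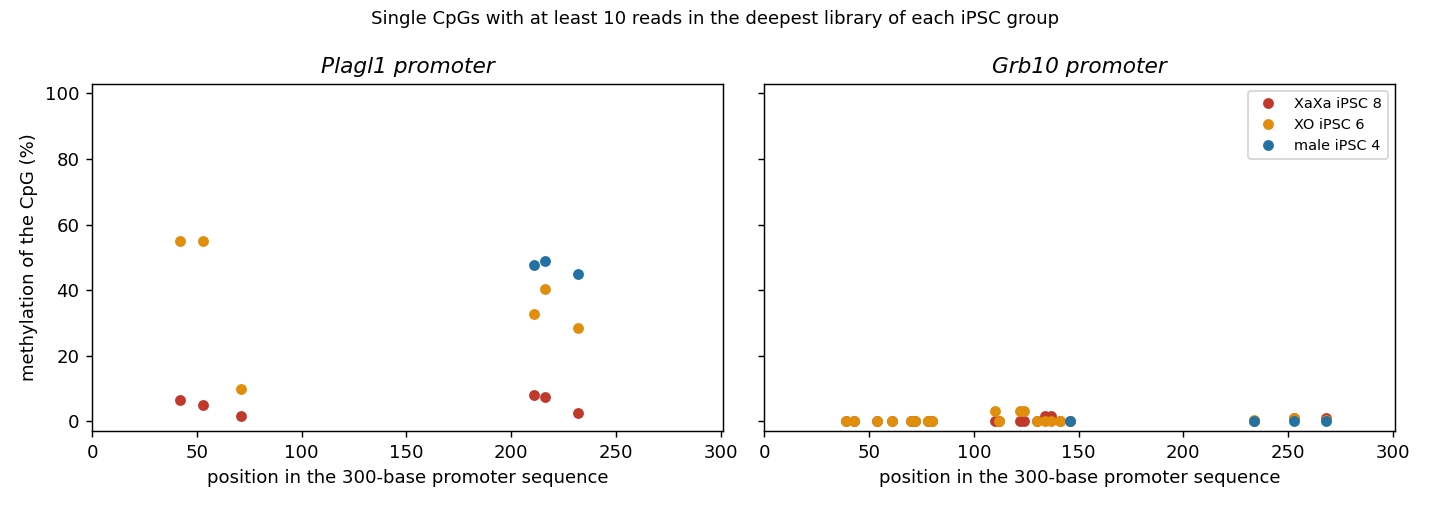
Methylation of single CpGs (y axis, percent) by position in the 300-base promoter sequences (x axis) for the deepest library of each iPSC group, XaXa 8, XO 6 and male iPSC 4, at CpGs with at least 10 reads. In the Plagl1 promoter XaXa 8 lies below 10% throughout, XO 6 runs from 10% at position 71 to 55% at positions 42 and 53, and male iPSC 4, plotted at 3 CpGs only, lies between 45.1% and 48.9%; in the Grb10 promoter all points lie near 0.

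At Mest (17 CpGs, 30685272 to 30685980) the male iPSCs were tightly grouped and XO was spread widely. XaXa 7 and 8 were at 27.2% and 21.3%, from 92 and 588 reads. XO 3 and 5 were lower than both, at 14.3% and 5.26%, and XO 6 and 9 were higher, at 45.4% and 55.0%, the last from 20 reads. Male iPSCs were at 63.0%, 65.5% and 62.4%, above each female iPSC library. SSEA1 positive and negative cells were at 60.9% (interval 46.5% to 73.6%) and 77.0% (67.8% to 84.2%). MEF 5 was at 67.0% from 14 CpGs and MEF 4 at 8.0% from 3 CpGs and 25 reads, so the MEF values do not cover the same CpGs. At the window first placed, further along the gene, XaXa was at 15.4% and 4.71% (52 and 170 reads), XO at 0%, 21.1%, 26.0% and 0% (30, 57, 169 and 6 reads), and male iPSCs at 82.4%, 33.3% and 48.1% (34, 9 and 189 reads).

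At the Peg10 and Sgce island (18 CpGs, 4697314 to 4697524) XaXa was lower than every male iPSC library, and 1 male library was far from the other two. XaXa was at 10.1% and 5.93%, from 89 and 1856 reads. XO 3, 5 and 6 were at 60.9%, 33.0% and 46.9%, and XO 9 had 0 methylated of 24 reads (limit 12.5%, 3 reads at the deepest CpG). Male iPSCs 1 and 2 were at 76.7% and 73.5%, and male iPSC 4 was at 35.5% from 276 reads, below XO 3 and 6. SSEA1 positive cells were at 52.2% (interval 40.6% to 63.5%) and SSEA1 negative cells had 0 of 29 (limit 10.3%, 4 reads at the deepest CpG). MEF 5 was at 49.02%, and MEF 4 had 0 of 14 (limit 21.4%, 2 reads at the deepest CpG).

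**Figure D2:**
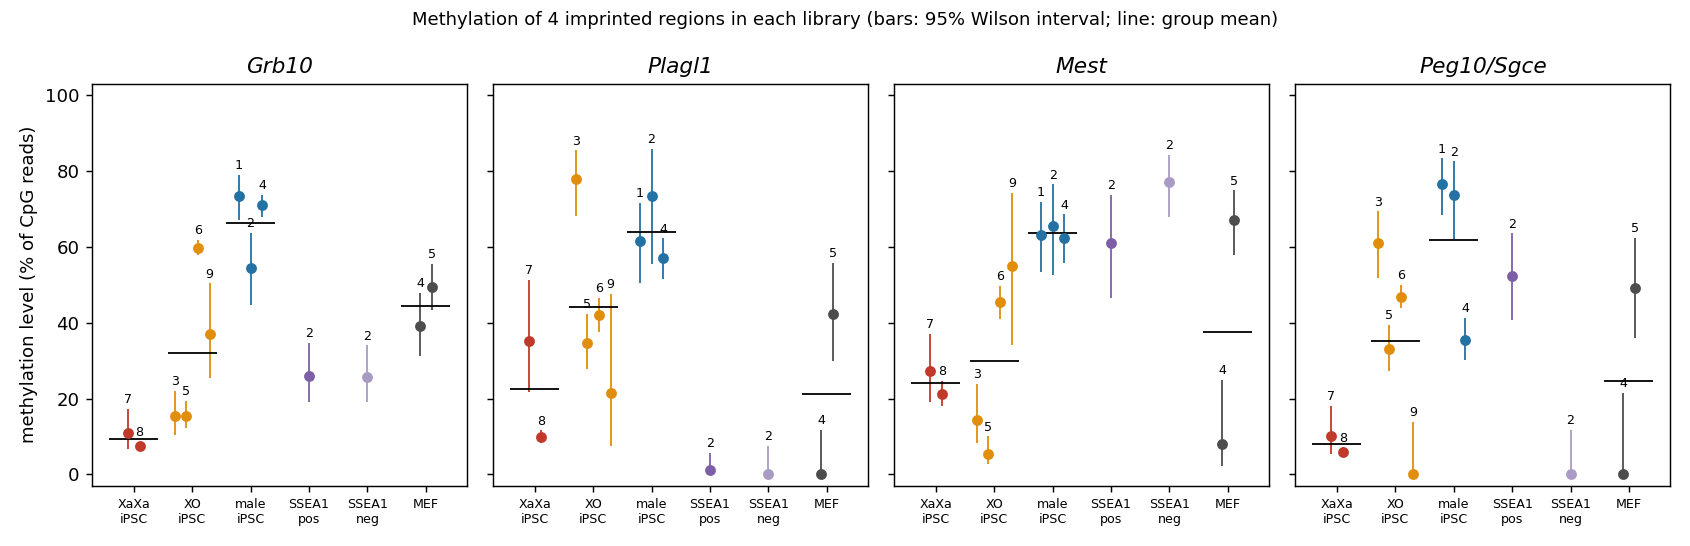
Methylation level (y axis, percent of CpG reads) of the 4 regions in each of the 13 libraries, by group on the x axis; points are libraries with their number, bars are 95% Wilson intervals and lines are group means. XaXa lies below male iPSCs in all 4 regions, while XO runs from 15.3% to 59.8% at Grb10 and from 0% to 60.9% at Peg10 and Sgce.

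A library that was low at one region was not low at all of them. XO 3 was at 15.3% at Grb10 and 14.3% at Mest but at 77.9% at Plagl1 and 60.9% at Peg10 and Sgce. XO 9 was the other way round, with 37.0% and 55.0% against 21.4% and 0%, on 14 to 54 reads. XO 6, the deepest XO library, lay between 41.9% and 59.8% in all 4. Among male iPSCs, only male iPSC 4 at Peg10 and Sgce was below 50%. XaXa 8, the deepest library of all, lay between 5.93% and 21.3%. Ordered by group mean, XaXa was below XO and XO below male iPSC at each region, but XaXa and XO differed by less than the SD of XO at Plagl1 and Mest, and XO and male iPSC by less than the SD of XO at Plagl1. MEF means lay between XaXa and male iPSC at Grb10 (44.3% ± 7.19), Mest (37.5% ± 41.7) and Peg10 with Sgce (24.5% ± 34.7), and at 21.2% ± 29.9 at Plagl1, close to XaXa (SD, n = 2 each).

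The first comparison sets XaXa against XO iPSCs, which asks what a second active X goes with in female iPSCs. The mean was 9.25% ± 2.40 in XaXa and 31.9% ± 21.2 in XO at Grb10, 22.5% ± 17.9 and 44.003% ± 24.1 at Plagl1, 24.2% ± 4.18 and 29.98% ± 23.9 at Mest, and 8.02% ± 2.96 and 35.2% ± 26.1 at Peg10 and Sgce (SD, n = 2 and 4). The differences were -22.6, -21.5, -5.76 and -27.2 points. Over whole regions, only at Grb10 did the groups not overlap, and there they did overlap in unweighted means of CpG levels. None passed 0.05 when library levels were permuted (exact two-sided permutation p = 0.133, 0.4, 0.8 and 0.333), and the smallest p that 2 against 4 libraries allow is 0.0667. The same test was run 24 times, on 4 regions and 6 pairs of groups that share libraries, and its smallest p was 0.0857, so none could pass after adjustment.

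The reads were also tested in a model across 77550 features, 1 kb tiles of the whole genome and the regions, with p-values adjusted over all of them. This quasi-binomial model fits a mean to each group and gives deep libraries more weight. A feature was called where its adjusted p was under 0.05 and its group means were 10 or more points apart. Of the features, 69.7% were called lower in XaXa than in XO. Grb10 (adjusted p = 3.49e-05), Plagl1 (adjusted p = 0.000131) and Peg10 with Sgce (adjusted p = 1.05e-05) were among them and Mest was not (adjusted p = 0.187). Of the 8 tiles of the intervals that could be tested, 6 were called lower, with a median difference of -18.6 points against -23.04 over all features. Without XaXa 8 only 1 of the 8 was called lower, against 44.6% of all features. With limma on log2 ratios of methylated to unmethylated reads, which weighs libraries equally, 54.6% of all features and 2 of the 8 tiles were called lower. Grb10 was called in limma too (adjusted p = 0.0373), while Plagl1 (adjusted p = 0.193) and Peg10 with Sgce (adjusted p = 0.156) were not.

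These calls rested on XaXa 8. Without it, the quasi-binomial adjusted p was 0.199 at Grb10, 0.764 at Plagl1 and 0.133 at Peg10 and Sgce, with differences of -20.95, -8.87 and -25.1 points, while XaXa 7 alone is assumed to vary like the other groups. The Grb10 difference was -13.4 points without XO 6, whose chromosome 11 depth was raised, and the Plagl1 difference was -34.1 points without XaXa 7. At Mest the difference was -14.0 points without XO 5, where it was called (adjusted p = 0.0137 in the quasi-binomial model), and 2.58 points without XO 9. Without XO 5 that model called 53436 of the 77550 features and 7 of the 8 tiles lower. With XO 3 and 9 both left out, the differences were -28.4 points at Grb10, -15.8 at Plagl1, -1.10 at Mest and -31.9 at Peg10 and Sgce.

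Set against the autosomal level of each library, the XaXa and XO means were near each other at Grb10 and Plagl1 but not at Mest, and XO was widely spread. The region minus the autosomal level was -24.5 points in XaXa and -23.5 points in XO at Grb10, -11.3 and -11.4 points at Plagl1, -9.55 and -25.5 points at Mest, and -25.7 and -20.2 points at Peg10 and Sgce. The SD of XO on this scale was 21.4 to 26.9 points over the 4 regions (n = 4). Here XaXa minus XO was -0.974, 0.169, 15.9 and -5.50 points (exact permutation p = 1, 1, 0.4 and 0.8). As a ratio to the autosomal level the direction at Plagl1 was the other way, with 0.640 in XaXa and 0.779 in XO, and the means lay further apart at Grb10, with 0.272 in XaXa and 0.584 in XO, and at Peg10 and Sgce, with 0.234 in XaXa and 0.613 in XO (exact permutation p = 0.333 at both).

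**Figure D3:**
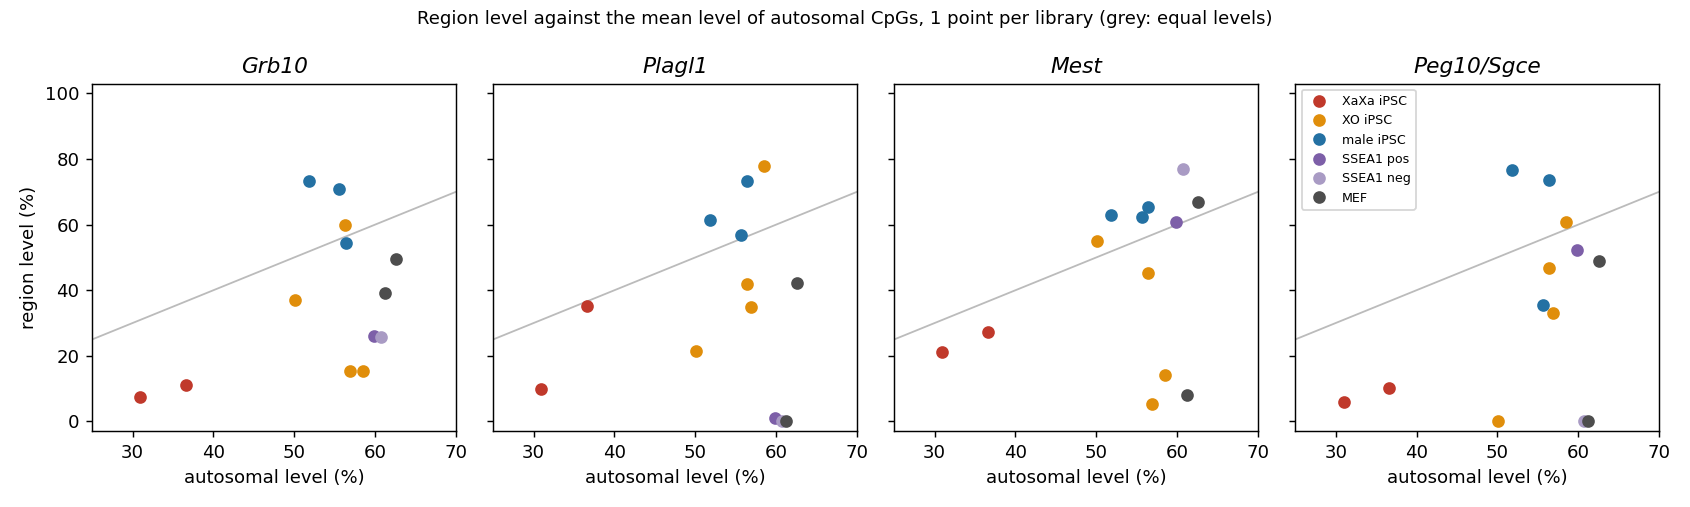
Level of each region (y axis, percent) against the mean level of autosomal CpGs in the same library (x axis, percent), 1 point per library, with a grey line at equal levels. XaXa lies at the left with autosomal levels of 36.6% and 31.0% and below or near the line, male iPSCs lie mostly above it, and XO 3 and 5 lie far below it at Grb10 and Mest.

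The second comparison sets XaXa against male iPSCs. All 4 regions had a lower mean in XaXa, with differences of -57.0 points at Grb10, -41.4 at Plagl1, -39.4 at Mest and -53.9 at Peg10 and Sgce, and at none did the groups overlap. The share of all features without overlap was not counted, for this or any other pair of groups. Since the autosomal level was also lower in XaXa, the lack of overlap is not shown to be particular to these regions. Male iPSC means were 66.2% ± 10.4, 63.9% ± 8.46, 63.6% ± 1.66 and 61.9% ± 22.9 (SD, n = 3). The exact permutation p was 0.1 at the first 3, the smallest that 2 against 3 libraries allow, and 0.2 at Peg10 and Sgce. The quasi-binomial model called all 4 lower, with an adjusted p of 2.94e-05, 5.93e-05, 0.00359 and 7.84e-05, and limma called Grb10 (adjusted p = 0.00519) and Peg10 with Sgce (adjusted p = 0.0215) but not Plagl1 (adjusted p = 0.0586) or Mest (adjusted p = 0.1004). Over all features 65.0% were called lower by the model and 48.7% by limma, and of the 8 tiles 6 and 4. Without XaXa 8 the model called 1 of the 8 tiles lower, against 37.5% of all features. Without that library none of the 4 was called by the quasi-binomial model (adjusted p = 0.09, 0.46, 0.199 and 0.111), with differences of -55.3, -28.8, -36.5 and -51.8 points.

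After subtraction of the autosomal level XaXa was still the lower group at all 4 regions. At Grb10 the region minus the autosomal level was -24.5 points in XaXa and 11.6 points in male iPSCs. The groups did not overlap at any of the 4 regions on this scale, on which the share over all features was not counted either. XaXa and male iPSCs differed in this measure by -36.1, -20.6, -18.6 and -33.02 points (exact permutation p = 0.1 at the first 3 and 0.2 at Peg10 and Sgce). As a ratio, Grb10 had 0.272 of the autosomal level in XaXa and 1.22 in male iPSCs, and Mest 0.715 and 1.17. The median difference of the 8 tested tiles was -40.4 points, against -22.3 points over all features.

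The third comparison sets the libraries labelled XO against male iPSCs, whose autosomal levels overlap. XO differed by -34.3 points at Grb10, -19.9 at Plagl1, -33.7 at Mest and -26.7 at Peg10 and Sgce, with an exact permutation p of 0.0857, 0.257, 0.0857 and 0.2, where 0.0286 is the smallest that 4 against 3 libraries allow. Only at Mest did the groups not overlap. The direction was the same at all 4 regions and none passed 0.05. In the quasi-binomial model none was called (adjusted p = 0.460, 0.568, 0.309 and 0.830), and over all features 0.0400% were called lower and 0.316% higher. Of the 8 tested tiles 0 were called by the model and 0 by limma, with 3 and 2 at an unadjusted p under 0.05. Over all features, 9063 in the model and 4331 in limma, higher or lower, were at an unadjusted p under 0.05. Among the 3 tiles, those from 11926001 and 30685001 were lower in XO and that from 11938001 was higher, by 13.3 points. The median difference of the 8 tiles was -22.0 points against 0.190 points over all features, and limma called 0% of all features lower.

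XO 6 decided this comparison at Grb10. Without it XO was at 22.6% and the difference was -43.6 points, called by the quasi-binomial model (adjusted p = 0.00271). In that fit 2 of the 8 tiles, both at Grb10, were called lower, against 0.0632% of all features. With the autosomal level subtracted, XO minus male iPSC came to -35.2, -20.7, -34.5 and -27.5 points (exact permutation p = 0.114, 0.171, 0.0571 and 0.171). With the XO libraries 5 and 6 alone, whose X depth was lowest in the group, XO minus male iPSC was -28.6, -25.6, -38.3 and -22.0 points without that subtraction.

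The iPSC groups were also set against the MEFs, whose values rest on 14 to 249 reads a region. At Grb10 XaXa differed from MEF by -35.1 points and was called lower by the quasi-binomial model (adjusted p = 0.0108) and by limma (adjusted p = 0.0104), as were 67.6% and 59.0% of all features in that direction. The call was lost without XaXa 8 (adjusted p = 0.291 in the quasi-binomial model, -33.4 points) and without MEF 5 (adjusted p = 0.205 in the same model, -29.98 points). Plagl1, Mest and Peg10 with Sgce differed by 1.34, -13.3 and -16.5 points and were not called. Fitted over XaXa and MEF alone, the quasi-binomial model called Mest (adjusted p = 0.0123) and Peg10 with Sgce (adjusted p = 0.00702) lower, and 5 of the 8 tiles in place of 2, against 65.0% of all features. Without MEF 4, Mest was at -42.7 points and was called (adjusted p = 0.0257 in the quasi-binomial model). With 2 libraries against 2 the smallest exact permutation p is 0.333.

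XO differed from MEF by -12.4 points at Grb10, 22.8 at Plagl1, -7.50 at Mest and 10.7 at Peg10 and Sgce, and the groups overlapped at each (exact permutation p = 0.6, 0.467, 0.667 and 0.867). None of the 4 was called. Without XO 6 the quasi-binomial model called Grb10 lower than MEF (adjusted p = 0.00389, -21.7 points) and Mest lower (adjusted p = 0.0217, -12.6 points). With XO 5 and 6 alone XO minus MEF was -6.67, 17.2, -12.2 and 15.4 points. Over all features 18.6% were called lower.

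Male iPSCs were above MEFs at all 4 regions, by 21.9, 42.8, 26.2 and 37.4 points. They did not overlap at Grb10 and Plagl1 (exact permutation p = 0.2 and 0.1, with 0.1 the smallest possible) and overlapped at Mest and at Peg10 and Sgce (exact permutation p = 0.4 and 0.3). The quasi-binomial model called none of the 4 and limma called Plagl1 (adjusted p = 0.0381). Fitted over these 2 groups alone, the quasi-binomial model called Grb10 higher in male iPSCs (adjusted p = 0.0194), as were 4.96% of all features. Within Grb10, the second tile (from 11926001) was called higher in male iPSCs, at 72.3% ± 21.2 (SD, n = 3) against 27.8% ± 2.05 in MEFs (SD, n = 2; adjusted p = 0.0496 in the quasi-binomial model and 0.0333 in limma), and this call was lost in the quasi-binomial model without male iPSC 1 or 4 and without either MEF library (adjusted p = 0.075 to 0.308). Over all features 5.20% were called higher by the model and 5.05% by limma.

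The intervals hold few tiles with reads, those of the 4 regions included. Of 85 tiles, 27 had reads. A filter of 3 CpGs and 10 reads, to be met in each of the 11 libraries of the replicated groups, was passed by 8. These were 4 at Grb10, 1 at Plagl1, 1 at Mest and 2 at Peg10 and Sgce. Only those from 11937001, 11938001 and 4705001 lie outside the 4 regions, so the other tiles repeat the regions. The tile with the main Grb10 promoter (from 11937001) was near 0 in all groups, with 0.571% ± 0.151 in XaXa (SD, n = 2), 1.01% ± 0.174 in XO (SD, n = 4), 1.26% ± 0.846 in male iPSCs (SD, n = 3) and 7.07% ± 0.644 in MEFs (SD, n = 2). SSEA1 positive and negative cells had 1.22% and 0.342%. MEFs were thus the one group above 3%, and the differences of -6.50 points in XaXa (adjusted p = 5.00e-06 in the quasi-binomial model, 0.000533 in limma), -6.05 points in XO and -5.80 points in male iPSCs are under the 10 points that a call needs.

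The next tile upstream of the Grb10 promoter (from 11938001) set XO apart from MEF. It was at 22.6% and 16.6% in XaXa 7 and 8, at 47.8%, 35.6%, 40.8% and 16.7% in XO 3, 5, 6 and 9, at 21.1%, 15.6% and 29.04% in male iPSCs, and at 6.82% and 13.3% in MEFs. Every XO library lay above both MEF libraries, with a difference of 25.2 points that was called higher (adjusted p = 0.0104 in the quasi-binomial model and 0.0180 in limma), as were 5.96% and 5.34% of all features. With MEF 4 or MEF 5 left out it was not called in the quasi-binomial model (adjusted p = 0.0669 and 0.128). XaXa was 15.6 points below XO there (adjusted p = 2.04e-05 in the quasi-binomial model, 0.119 in limma, 0.0598 in the quasi-binomial model without XaXa 8), and XO was 13.3 points above male iPSCs without a call (adjusted p = 0.140 in the quasi-binomial model).

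Beside the Peg10 and Sgce island, the tile from 4705001 was highly methylated in every library outside XaXa. It was at 52.5% and 53.3% in XaXa, between 83.6% and 100% in XO, at 89.4%, 92.6% and 91.1% in male iPSCs, at 98.1% and 93.03% in SSEA1 positive and negative cells, and at 95.4% and 91.5% in MEFs. XaXa differed by -37.1 points from XO, -38.1 from male iPSCs and -40.5 from MEFs, called in both tools (adjusted p = 2.75e-07, 7.57e-07 and 1.24e-06 in the quasi-binomial model). The means of XO, male iPSC and MEF there lay between 90.04% and 93.5%. Libraries of 1 group were closer together at this tile than at the island. SDs at the tile were 0.571 in XaXa, 6.997 in XO and 1.62 in male iPSCs, against 2.96, 26.1 and 22.9 at the island. In XO and male iPSCs the tile was near the upper limit of 100%, which leaves less room for spread than the levels of the island. The next tile (from 4706001), which did not pass the filter, was at 76.4% and 57.8% in XaXa 7 and 8 (72 and 793 reads), 85.7% to 91.5% in XO and 90.5% to 95.8% in male iPSCs, with 5 to 9 reads in the other libraries. A tile with 5 or fewer CpGs at the far end of the Plagl1 interval (from 12800001), which did not pass the filter, had 30.9% ± 2.43 in XaXa (SD, n = 2), 53.4% ± 14.99 in XO (SD, n = 4), 49.95% ± 1.93 in male iPSCs (SD, n = 3) and 56.7% ± 14.1 in MEFs (SD, n = 2).

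**Figure D4:**
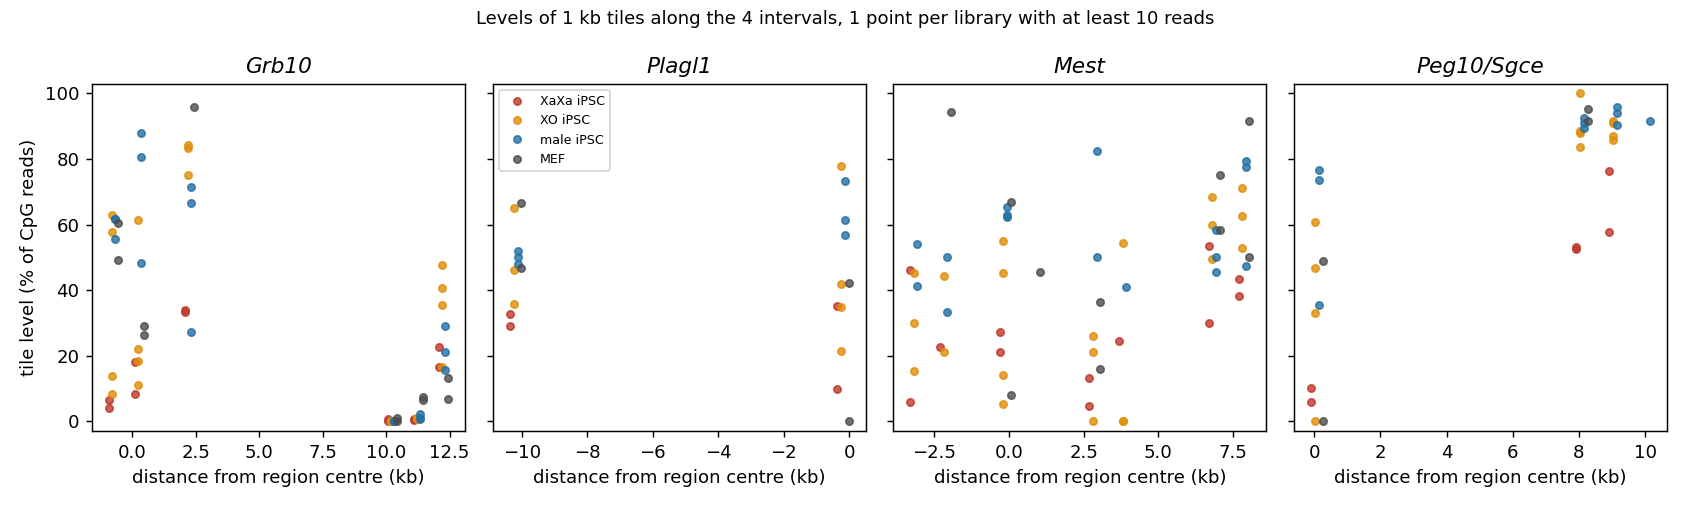
Level of each 1 kb tile (y axis, percent) by its distance from the centre of the region (x axis, kb) in the 4 intervals, 1 point per library of the replicated groups where the tile had at least 10 reads. The Grb10 promoter tile lies near 0 in every iPSC library, and in the flank of Peg10 and Sgce XaXa lies near 53% in the tile from 4705001 and at 76.4% and 57.8% in the next, with XO, male iPSC and MEF above 83%.

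Other maternally methylated regions were taken from a list of 10 windows, of which 7 could be tested (Mcts2, Nap1l5, Snrpn, Inpp5f, Zrsr1, Peg13 and Igf2r with Airn), while Gnas 1A, Peg3 and Kcnq1ot1 did not pass the filter. In XaXa against XO the quasi-binomial model called 2 of the 7 lower, Nap1l5 and Peg13 (median -4.69 points over the 7), against 69.7% of all features. By limma 1 was called, against 54.6%, and without XaXa 8 the quasi-binomial model called 0, against 44.6%. In XaXa against male iPSC 6 were called lower (median -42.8 points), against 65.0% of all features. By limma 6 were called, against 48.7%, and without XaXa 8 the quasi-binomial model called 2, against 37.5%. In XO against male iPSC 1 was called lower, Mcts2 (median -33.6 points), against 0.0400% of all features. There limma called 0 (adjusted p = 0.282 at Mcts2), and without XO 6 the quasi-binomial model called 5, with Nap1l5, Inpp5f, Zrsr1 and Igf2r with Airn besides Mcts2, against 0.0632% of all features.

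Against MEF, 7 of the 7 windows had a lower mean in XaXa and 6 in XO. In XaXa 6 were called lower (median -50.9 points), against 67.6% of all features. By limma 5 were called, against 59.0%. Without XaXa 8 the quasi-binomial model called 2, against 37070 of the 77550 features. In XO the quasi-binomial model called 1, Mcts2 (median -46.4 points), against 18.6% of all features. In limma 5 were called (Mcts2, Nap1l5, Inpp5f, Zrsr1 and Igf2r with Airn), against 21.3% of all features, and in the quasi-binomial model without XO 6 these 5 and Snrpn, against 18.3%. In male iPSCs 0 were called (median -8.11 points), against 19.8% of all features; limma, and the quasi-binomial model over these 2 groups alone, called Nap1l5 lower, at -35.3 points (adjusted p = 0.0145 and 0.0302), and limma called 22.0% of all features lower. None was called higher. Grb10, Plagl1 and Peg10 with Sgce differed more between XaXa and XO than 5 of the 7 windows, which lay between -1.27 and -7.44 points. Nap1l5 differed by -27.3 and Peg13 by -18.9 points. XO means at those 5 windows were only 3.16% (Mcts2) to 22.6% (Igf2r with Airn), which leaves little room for a larger fall. They were 31.9% at Grb10, 44.0% at Plagl1, 35.2% at Peg10 with Sgce, 32.7% at Nap1l5 and 53.3% at Peg13. The median differences over all features were -23.04, -22.3, 0.190, -28.5, -3.94 and -3.54 points in these 6 comparisons, so that the list, like the 4 regions, lay below the genome between XO and male iPSC.

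The tiles whose levels over the 13 libraries were nearest to each region were found among 30544 tiles of 5 or more CpGs that had 20 or more reads in all libraries, by the root mean square difference in points. The nearest to Plagl1 was on chromosome 16 (from 30775001), at 8.32 points, with 38.3% and 18.8% in XaXa, 71.4%, 41.9%, 36.8% and 31.8% in XO, 71.3%, 67.7% and 57.5% in male iPSCs, and 17.9% and 30.8% in MEFs. It shared with Plagl1 the low SSEA1 positive and negative values, 3.33% and 0%. The next were on chromosomes 8 (from 122951001, 13.6 points) and 4 (from 140664001, 14.1 points). The nearest to Mest was on chromosome 2 (from 174125001), at 12.6 points and 3000 bases from the Gnas 1A window of the list, and the third, at 17.95 points, was 1000 bases from it (from 174123001); the second was on chromosome 7 (from 82454001, 17.9 points).

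Grb10 and the Peg10 and Sgce island had no tile as near. For Grb10 they were on chromosomes 8 (from 92096001, 14.6 points), 5 (from 65739001, 14.7 points) and 3 (from 99689001, 15.04 points), and for Peg10 and Sgce on chromosomes 5 (from 98722001, 18.1 points), 4 (from 9112001, 18.4 points) and 4 (from 100151001, 18.5 points). No annotation of mm9 was at hand, so these tiles are given by position only. Counting error alone moves a level by several points at these depths, so the likeness describes these libraries and no more.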

How the data were processed

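RRBS was measured in 13 mouse libraries. For every CpG with reads, the tables deposited by the authors hold a total read count and a methylated read count, both raw, per the file headers. They also hold the methylated fraction that the authors computed from them, which was not used. The submitters' processing notes name BSMAP and mm9; no version or filter is stated there. Samples were grouped by the source name in the labels, and library numbers are those of the titles.

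Positions are mm9, from 1. Reads were summed in 1 kb tiles and in regions. Those of Grb10, Plagl1 and Peg10 with Sgce were placed at the known imprinted islands from general knowledge, not from an annotation. The Mest region is instead the tile before the window so placed, chosen after its values had been seen. The members, regions and the list of other imprinted windows were chosen with earlier results of these data known. Levels of libraries were compared with exact two-sided permutation tests. The quasi-binomial model had 1 mean per group over 11 libraries, a dispersion moderated across features (limma squeezeVar) and kept at 1 or above, an F test and Benjamini-Hochberg adjustment over all features; features needed 3 CpGs and 10 reads in each library. Tested on simulated data, this model recovered known changes but called too many unchanged features when levels vary between libraries whatever their depth; limma on log2((methylated + 1)/(unmethylated + 1)) did not, but missed changes, so both are given. Named were the 4 regions, each tile passing that filter, and for each region the 3 nearest tiles of the genome. Alternatives were other CpG minimums, shared CpGs, unweighted CpG means, whole intervals, other read minimums, limma, fits over 2 groups and leaving out libraries. SSEA1 cells, with 1 library each, were left out of tests. The software was R 4.3.3 with limma 3.58.1, and Python 3.11.15 with scipy 1.17.1, pandas 2.3.3 and numpy 2.4.6.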

Additional observations from a re-analysis of the deposited data

How the results depend on the processing

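Depth limits these values, since XO 9 and both MEF libraries had 2 to 20 reads at the deepest CpG of each region, and so does the spread between well-read libraries of 1 group (Grb10 at 15.5% in XO 5 and 59.8% in XO 6). Without XaXa 8 the regions lost their calls between XaXa and the other iPSCs. Over all alternatives the library levels of the 4 regions kept their direction in 223 recalculations and turned in 17, and levels minus the autosomal level kept it in 86 and turned in 10. Whether Grb10 and the 8 tiles were called in the model was unchanged in 440 recalculations, while a call was lost in 30 and gained in 13. The 440 include features that were called in neither fit. No paired analysis was possible because the groups compared share at most 1 replicate number. Results at 5 reads per CpG could not be had for 13 region comparisons, where a library had no such CpG. The cause of the changes below was not tested, except that fewer features were tested at 30 reads.

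Directions turned as follows. With CpGs of at least 5 reads, male iPSC minus MEF at Grb10 was -1.36 points. With CpGs read in every library compared, Plagl1 was at -7.53 points for XaXa minus MEF and at -4.81 for XaXa minus XO after subtraction of the autosomal level, and Peg10 with Sgce at -7.68 for XO minus MEF. Over whole intervals these MEF comparisons gave -11.4 and -12.3 points. As a ratio to the autosomal level, over all CpGs of the region, XaXa minus XO at Plagl1 was -0.139. With libraries of under 5 reads at their deepest CpG left out, an alternative chosen after seeing the data, Plagl1 was at -19.8 for XaXa minus MEF, Mest at 2.58 for XaXa minus XO and Peg10 with Sgce at -2.10 for XO minus MEF.

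Leaving out 1 library at a time, XaXa minus XO after subtraction of the autosomal level ran from -7.52 to 8.02 points at Grb10, -9.67 to 10.5 at Plagl1 and -15.4 to 2.06 at Peg10 and Sgce, and without that subtraction from -14.0 to 2.58 at Mest. XaXa minus MEF ran from -19.8 to 22.5 at Plagl1, -42.7 to 16.2 at Mest and -41.0 to 8.02 at Peg10 and Sgce. XO minus MEF ran from -36.98 to 21.98 at Mest and -13.8 to 35.2 at Peg10 and Sgce, and male iPSC minus MEF from -3.32 to 55.6 at Mest.

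The features called in both directions together numbered, at 30 reads in place of 10, 12303 for XaXa minus XO, 11284 for XaXa minus male iPSC, 42 for XO minus male iPSC, 13529 for XaXa minus MEF, 5918 for XO minus MEF and 6080 for male iPSC minus MEF, where at 10 reads they numbered 54053, 50457, 276, 53049, 19085 and 19389. Without 1 library they ran from 34620 to 55881, 29199 to 52257, 62 to 278, 33947 to 54290, 7132 to 18636 and 7973 to 17923 in the same order. For XO minus male iPSC limma called 0 features, with 4331 at an unadjusted p under 0.05, and the fit over those groups alone called 54.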
